A study of Mus musculus with 12 samples.

Results

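The miRNAs described here are the 52 of 386 listed mature miRNAs of mouse liver whose registry number is 1000 or higher, whatever their letter or arm, with miR-5099 left out. The rule used the number in the name, except that miR-5099 was taken out by name. It was set with earlier results of these data known. The rule found 53 entries, of which miR-1982.1-3p and miR-1982.2-3p had identical values in every library and were counted once, here under miR-1982.1-3p. Small RNA was sequenced from livers of fasted, wild-type C57BL/6 male mice at 12 weeks of age (postnatal day 84). Their mothers, drawn from 35 females, were kept until weaning on a control chow (3% lipids and 7% simple carbohydrates by weight) or on an obesogenic diet (20% lipids and 10% simple carbohydrates) given together with sweetened condensed milk. Weaning on day 21 put each son on one of the diets, which gave 4 groups of 3 libraries: CC, in which both generations ate control chow; CO, in which only the son ate the obesogenic diet; OC, in which only the mother did; and OO, in which both did. Every litter had been set to 6 pups on postnatal day 3. The labels do not name the mother of each son, so brothers could be among them. One title number, with a different letter each time, appears on both OC replicate 2 and OO replicate 3, and what it marks is not stated. P-values speak of the spread over the 12 livers sequenced.

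A miRNA is cut from a hairpin of RNA, and either arm of that hairpin (5p or 3p) can be kept as the mature strand. The mature strand guides silencing proteins to messenger RNAs that pair with its seed, bases 2 to 8. miRNAs are numbered in order of registration, so high numbers mark entries that were found late, mostly by deep sequencing, and many of them are of low abundance or known in few species. Some late hairpins lie inside other structured RNAs, among them snoRNAs and scaRNAs, which guide the chemical modification of ribosomal and spliceosomal RNA in the nucleus. Others lie in introns of protein-coding genes and are transcribed with their host.

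RefSeq (build GRCm38.p6) gave a mature sequence for 38 of the 52. The first set is shown because these mature strands lie whole inside annotated snoRNAs or scaRNAs (GENCODE vM21, same strand) and include several of the miRNAs on which the results turn. Sequences are written 5′ to 3′ with the seed in capitals.
miR-1839-5p: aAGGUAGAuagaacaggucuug
miR-1843a-5p: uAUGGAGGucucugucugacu
miR-1843b-5p: aUGGAGGUcucugucugacuu
miR-1843a-3p: uCUGAUCGuucaccuccauaca
miR-3068-5p: uUGGAGUUcaugcaaguucuaacc
miR-3068-3p: gGUGAAUUgcaguacuccaaca
miR-3084-3p: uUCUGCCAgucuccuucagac
miR-5121: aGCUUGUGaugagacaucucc
miR-1839-5p comes from a hairpin at chr7:81529916-81529988 (plus strand), which GENCODE annotates as a scaRNA within the lincRNA 2900076A07Rik. The miR-1843a hairpin at chr12:80391613-80391677 (minus strand) lies in Scarna3b within an intron of Dcaf5, and the miR-1843b hairpin at chr1:159340358-159340423 (plus strand) lies in Scarna3a within an intron of Cop1, a ubiquitin ligase gene. miR-3068 is annotated as a snoRNA at chr12:87437679-87437757 (minus strand) within an intron of Alkbh1. miR-3084-3p has 2 copies on chromosome 19 with the same mature sequence, at chr19:24942235-24942303 in the snoRNA Gm23658 and at chr19:60774329-60774397 in Snora19, an intronic snoRNA of Eif3a (both on the minus strand). miR-5121 lies in Snord33, a snoRNA of the ribosomal protein gene Rpl13a, at chr7:45126918-45126991 (minus strand). In all, 9 of the 38 (23.7%) lay whole inside a snoRNA or scaRNA, against 3 of 284 (1.06%) of the other listed miRNAs with a sequence (miR-664-5p, miR-664-3p and miR-677-5p).

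The hairpins of miR-1843a and miR-1843b are shown because their 5p strands are the same along most of their length. Capitals mark the 5p strand here.
miR-1843a hairpin: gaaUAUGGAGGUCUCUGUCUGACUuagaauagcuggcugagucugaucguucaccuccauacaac
miR-1843b hairpin: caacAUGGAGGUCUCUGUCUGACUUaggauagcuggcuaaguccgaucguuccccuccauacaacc
The 5p strands share a run of 20 bases, offset by 1 base, so their seeds differ. All 21 bases of miR-1843b-5p also occur in the annotated Scarna3b transcript. The longest run shared by the 3p strands is 9 bases, with more shared bases beside it.

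The next set lies outside snoRNAs and is shown because each of its members had an unadjusted limma p under 0.05 in a diet comparison.
miR-1247-5p: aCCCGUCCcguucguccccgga
miR-1933-3p: cCAGGACCaucagugugacuau
miR-1947-5p: aGGACGAGcuagcugagugcug
miR-1968-5p: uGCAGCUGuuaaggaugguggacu
miR-3057-5p: aUUGGAGCugagauucugcgggau
miR-3061-3p: cUACCUUUgauaguccacugcc
miR-1247-5p lies in an exon of Dio3os, the antisense RNA next to Dio3 at the end of an imprinted cluster rich in miRNAs, with its hairpin at chr12:110278048-110278129 (minus strand). miR-1933 (chr11:21344588-21344675, minus strand) lies in an intron of Ugp2, which encodes the enzyme that makes UDP-glucose for glycogen synthesis. miR-1947 (chr16:33105361-33105445, plus strand) and miR-1968 (chr8:13189031-13189098, minus strand) lie in introns of Lmln, a metallopeptidase gene, and Grtp1, a growth-hormone-regulated gene. miR-3057 (chr10:81271597-81271687, plus strand) overlaps exons of Apba3, and miR-3061 (chr11:52126746-52126836, plus strand) lies in an exon of Ppp2ca, the catalytic subunit of protein phosphatase 2A. Of the 38, 20 lay in a protein-coding gene on the same strand outside snoRNAs.

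The last set is shown for its spread, its base composition or its shared runs.
miR-6240: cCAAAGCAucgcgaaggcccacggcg
miR-5126: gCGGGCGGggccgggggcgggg
miR-6238: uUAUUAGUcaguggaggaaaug
miR-3963: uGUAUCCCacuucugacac
miR-2137: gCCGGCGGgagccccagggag
miR-3968: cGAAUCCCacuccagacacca
miR-5100: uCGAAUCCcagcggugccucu
miR-3073a-3p: uUGAUGUCcacugugaccauag
miR-3073b-5p: aUGGUCACaguggacaucaacc
miR-5126 is made of G and C alone (100%), and the median GC content of the 38 was 54.5%, against 47.6% of the other 284. miR-3968 and miR-5100 share the run of 9 bases CGAAUCCCA. miR-3073a-3p and miR-3073b-5p are reverse complements over 20 bases, as their hairpins lie on opposite strands at chr12:112109238-112109322 and chr12:112109250-112109309. The miR-3073a hairpin lies in an intron of Aspg, and the miR-3073b hairpin is antisense to that gene. Of the 38, 8 had no annotated gene on their strand, among them miR-6240 (chr5:114851948-114852064, plus strand), miR-6238 (chr7:53891761-53891889, minus strand) and miR-3963 (chr3:151023792-151023862, minus strand). A seed shared with another listed miRNA was held by 2 of the 38 (5.26%), miR-3473d with miR-674-5p and miR-6240 with miR-330-3p, against 97 of 284 (34.2%) of the others. The 14 without a sequence in the table were miR-1191, miR-1839-3p, miR-1948-3p, miR-1948-5p, miR-1982.1-3p, miR-3096a-5p, miR-3096b-5p, the shared entry miR-3107-5p/miR-486-5p, miR-5097, miR-5105, miR-5109, miR-5115, miR-5117-3p and miR-6243.

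Values are CPM, reads scaled to a fixed total in each library. Whole-read steps in the values placed the depth behind them at 5.45 to 22.2 M reads (mega-reads), and it was 16.7 ± 4.8 M reads in sons of obesogenic mothers against 10.6 ± 3.78 M reads in sons of control mothers (SD, n = 6 each). CO replicate 3, the shallowest library, held the lowest value of 40.9% of all entries, and OO replicate 3 the highest value of 29%. These libraries also had the lowest and the highest TMM factor, an alternative scaling of whole libraries, at 0.825 and 1.1. The part of depth in these shares was not tested. The tissue label was met by its markers: all 7 hepatocyte miRNAs were listed and held 34.4 to 41.6% of the CPM total. Of the other fixed lists, all 6 leukocyte markers summed to 0.227 to 0.458%, the 2 endothelial to 1.56 to 2.81%, all 4 mesenchymal to 3.14 to 4.81% and all 5 biliary to 0.0396 to 0.0892%. All 4 erythroid markers summed to 0.286 to 0.9%, while miR-206-3p (muscle, 2 of 3 listed, 0.00212 to 0.119%) and miR-124-3p (neuronal, 2 of 3 listed, 0.0018 to 0.174%) were not listed. The 3 CO libraries stood apart in 2 of the lists: their endothelial sums, 15584 to 22984 CPM, were below the 23722 to 28052 CPM of the other 9, and their hepatocyte sums, 376454 to 415633 CPM, were above the 344097 to 375450 CPM of the others. In whole liver, fewer cells of a type and less of a miRNA per cell cannot be told apart.

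The 52 miRNAs were a small part of the listed miRNAs' reads, at 0.521 to 0.923% of the summed values per library with a median of 0.621%. Their mean levels ran from 1.75 to 2736 CPM with a median of 12.6 CPM, against a median of 38.7 CPM for the 333 other entries. Mean levels under 10 CPM were found for 23 of the 52 (44.2%) and for 101 of the others (30.3%). At the top stood the entry shared by miR-3107-5p and miR-486-5p, a miRNA abundant in red cells, at 2736 ± 1106 CPM (SD over 12 libraries). Without it the share was 0.278 to 0.478%. It was followed by miR-5115 (898 ± 293 CPM), miR-1843a-5p (425 ± 29.9), miR-1843b-5p (419 ± 34.9), miR-1839-5p (349 ± 55.6), miR-1948-3p (325 ± 35), miR-5109 (291 ± 138) and miR-6243 (229 ± 93.2). These 8 stayed the same when ranked by the median. In that order only the top entry was clear of its neighbour, with a lowest library of 1670 CPM against a highest of 1321 CPM for miR-5115. Every later pair of neighbours overlapped in their ranges over the 12 libraries. miR-1843a-5p and miR-1843b-5p differed by at most 3 reads in 11 libraries, so almost the same reads enter the order and the share under both names. CPM are not corrected for the length of a miRNA or for how well it is captured. The sequences known here had 19 to 26 bases, and the order is one of reads, not of molecules in the tissue.

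**Figure D1:**
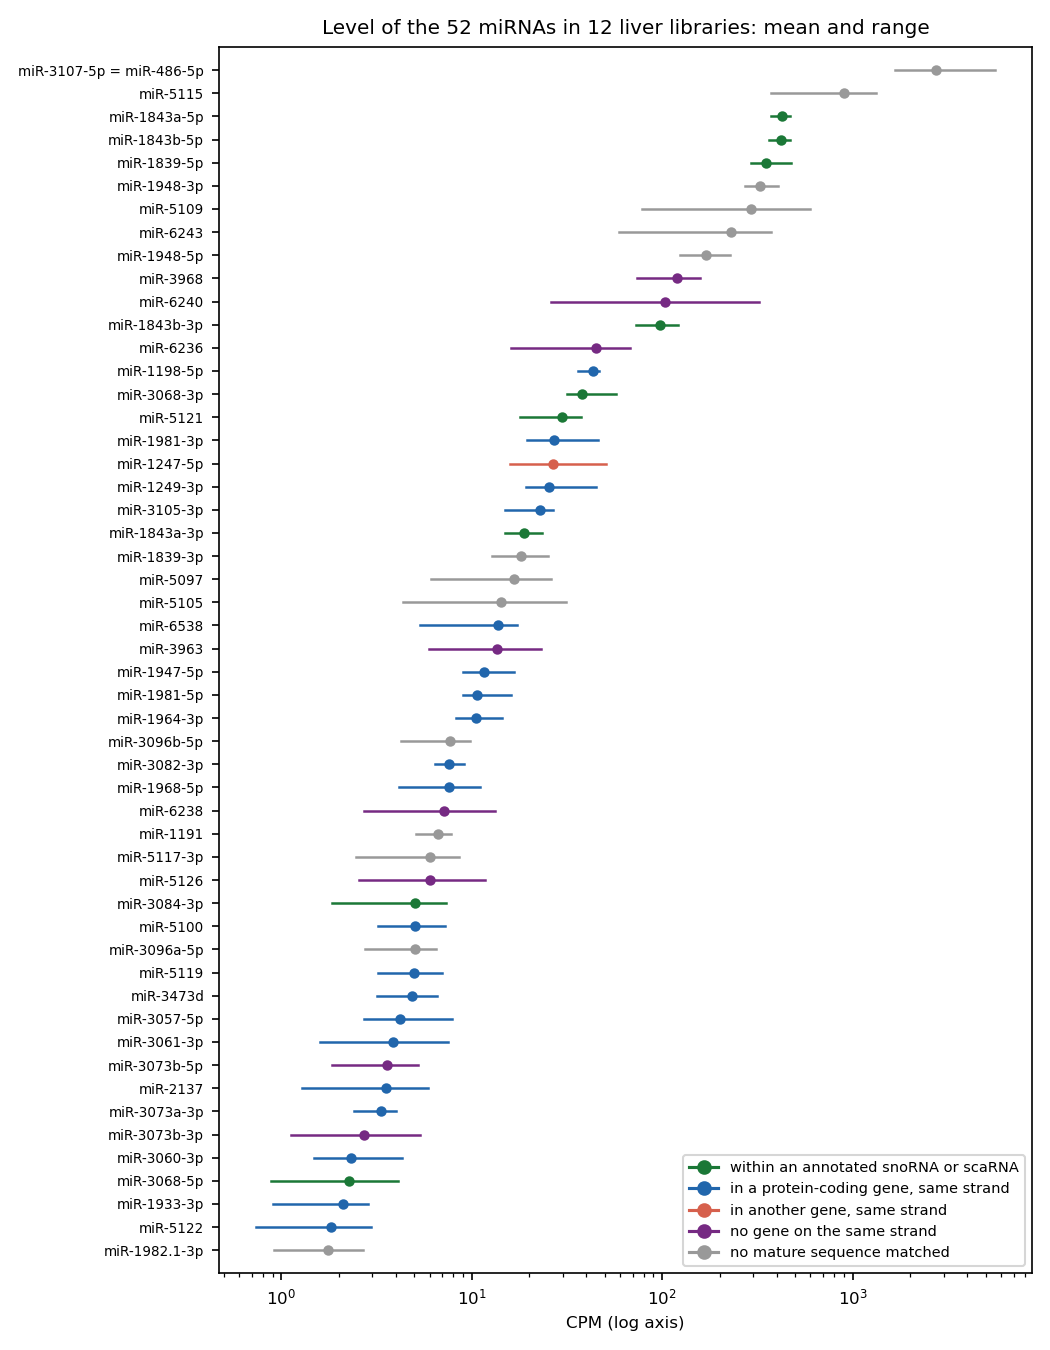
Mean level of each of the 52 miRNAs in CPM (log axis), with a line from the lowest to the highest of the 12 libraries, coloured by what GENCODE annotates at the hairpin. Long lines such as that of miR-6240 (26.2 to 324 CPM) stand beside short ones such as that of miR-1843a-5p (371 to 467 CPM).

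By where the hairpin lies, the 9 miRNAs inside snoRNAs or scaRNAs had mean levels of 2.28 to 425 CPM and the 20 in protein-coding genes 1.82 to 43.4 CPM. The 8 with no gene on their strand had 2.73 to 119 CPM. The spread between replicates, as the SD of log2(CPM + 1) within groups, had a median of 0.20 inside snoRNAs or scaRNAs, 0.27 in protein-coding genes and 0.54 with no gene on the strand. The ranges overlapped, at 0.06 to 0.31, 0.12 to 0.53 and 0.27 to 1.10 in the same order. The 14 miRNAs without a sequence, which were not placed by location, had a median of 0.34 (0.15 to 0.81). Over the 52 the median was 0.29 and over the 333 others 0.23. miR-1843a-5p, at 0.06, had the smallest spread of all 386 entries.

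The sons' own diet was compared over 6 obesogenic-fed and 6 control-fed sons, as the mean of the changes on each maternal diet. None of the 52 passed (0 of 52, limma with Benjamini-Hochberg adjustment over 386 entries, adjusted p under 0.05), where 0.777% of all entries passed. An unadjusted limma p under 0.05 was found for 10 of the 52 (19.2%), 6 higher and 4 lower, beside 14.8% of all entries (6.74% higher and 8.03% lower). limma-voom, a weighted fit to the reads, also passed 0 of the 52. The median log2 change was -0.01 over the 52 and -0.02 over all entries, with 24 higher and 28 lower. TMM factors made this split 34 higher and 18 lower. The 95% interval of the change stayed within 1 on the log2 scale for 47 of the 52 (90.4%) and for 93.5% of all entries. In no member did the 6 libraries of one diet lie apart from those of the other (0 of 52, 2.59% of all entries).

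Maternal diet gave 0 of 52 past the limma threshold, as it did over all entries (0%). An unadjusted p under 0.05 was found for 3 of the 52 (5.77%), all higher in sons of obesogenic mothers, beside 6.99% of all entries (5.96% higher and 1.04% lower), and limma-voom passed 0. The median log2 change was 0.11 over the 52 and 0.08 over all entries. The split was 37 higher and 15 lower at the deposited scaling and 29 higher and 23 lower with TMM factors. Again no member's libraries lay apart by maternal diet (0 of 52, 0.777% of all entries).

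**Figure D2:**
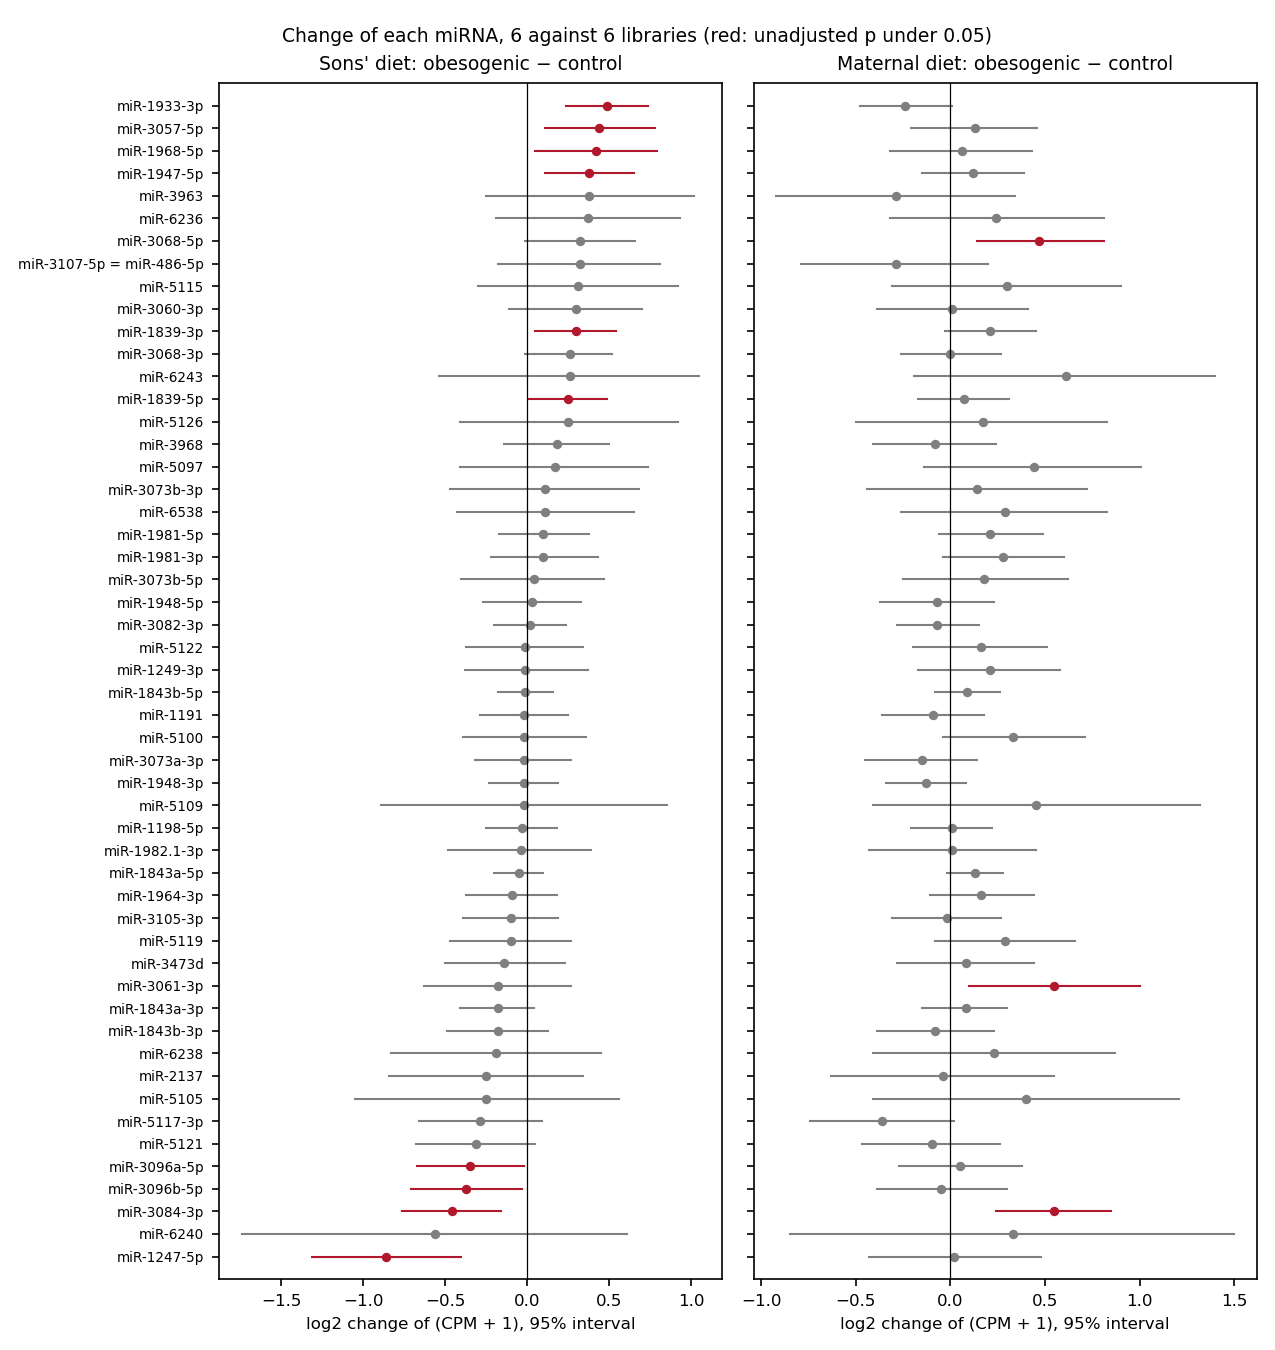
Change of each of the 52 miRNAs on the log2(CPM + 1) scale with its 95% interval, by the sons' own diet (left) and by maternal diet (right), each over 6 against 6 libraries. Red marks the 10 and the 3 with an unadjusted limma p under 0.05; none passed after adjustment.

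Between single groups, of 3 libraries each, 0 of the 52 passed in limma or in limma-voom in any comparison. CO against CC had 7 of 52 with an unadjusted limma p under 0.05, 4 higher and 3 lower (of all entries 16.3% had one, 3.11% higher and 13.2% lower, and 0.777% passed). OO against OC had 4, 2 in each direction (of all entries 7.25% had one, 4.66% higher and 2.59% lower, and 0.518% passed). OC against CC had 1, lower (of all entries 1.04% had one, all lower, and 0% passed). OO against CO had 5, 3 higher and 2 lower (of all entries 12.2% had one, 9.84% higher and 2.33% lower, and 0% passed). OO against CC had 6, 4 higher and 2 lower (of all entries 12.2% had one, 7.25% higher and 4.92% lower, and 0.259% passed). The interaction, the difference between the sons' diet effects on either maternal diet, had 1, higher (of all entries 3.89% had one, 3.11% higher and 0.777% lower, and 0% passed). CC, CO, OC and OO each enter several of these comparisons, so they share libraries. The groups did not overlap for 10 of the 52 in CO against CC (22.0% of all entries), 9 in OO against OC (15.5%), 4 in OC against CC (8.81%), 9 in OO against CO (19.2%) and 6 in OO against CC (22.0%). miR-1843a-5p and miR-1843b-5p, with almost the same reads, both count in CO against CC and in OO against CO. With TMM factors the median change of all entries moved from -0.05 to 0.06 in CO against CC, from 0.13 to -0.01 in OO against CO and from 0.13 to -0.01 in the interaction. The splits of the 52 moved with it, from 27 higher and 25 lower to 34 and 18, from 36 and 16 to 22 and 30, and from 26 and 26 to 20 and 32.

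Among the miRNAs in snoRNAs, miR-3084-3p was the one most often singled out, with an unadjusted limma p under 0.05 in 5 of the 8. It read 5.94, 5.35 and 4.64 CPM in the CC libraries and 2.67, 3.81 and 1.84 CPM in CO. It read 7.35, 5.47 and 6.5 CPM in OC and 5.44, 5.67 and 5.92 CPM in OO. The 3 CO libraries were the lowest of the 12, and the other groups overlapped one another. The same 3 had the lowest endothelial marker sums (15584 to 22984 CPM) and the highest hepatocyte sums (376454 to 415633 CPM), whose part in the values of miR-3084-3p was not tested. In CO against CC the log2 change was -0.77 (95% interval -1.20 to -0.34, limma adjusted p = 0.166) and in OO against OC -0.15 (-0.58 to 0.28, adjusted p = 0.982). The interaction was 0.62 (0.02 to 1.23, limma adjusted p = 0.773), so the effects were not shown to differ. OO was above CO by 0.86 (0.43 to 1.28, adjusted p = 0.165), and averaged over the sons' diet the maternal change was 0.55 (0.24 to 0.85, adjusted p = 0.268, limma). CO replicate 3 rested on 10 reads of this miRNA and OC replicate 1 on 163.

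The call on miR-3084-3p moved with single choices. Without CO replicate 2, CO against CC reached -0.96 with a limma adjusted p of 0.0419, and OO against CO 1.05 with 0.0497. With log2 depth as a covariate CO against CC gave -0.79 with 0.0259, while the maternal change was 0.34 with an adjusted p of 0.737. Over all alternatives run the adjusted p ranged from 0.0259 to 0.394 for CO against CC and from 0.0497 to 0.592 for OO against CO. For the maternal change it ranged from 0.126 to 0.737.

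miR-3068, a snoRNA by annotation, gave both arms, with the 5p strand the lower. miR-3068-5p read 2.41, 1.2 and 0.884 CPM in CC, 1.76, 2.14 and 2.2 in CO, 2.21, 2.44 and 2.42 in OC, and 2.84, 4.09 and 2.77 in OO. The 3 OO libraries were the highest of the 12, and OO lay apart from each other group. OO against CC gave a log2 change of 0.79 (SE 0.216, limma adjusted p = 0.233), and the maternal change was 0.47 (SE 0.153, adjusted p = 0.579). Without CC replicate 1, OO against CC had a limma adjusted p of 0.0438, in a range of 0.0438 to 0.433 over the alternatives. CC replicates 2 and 3 rested on 9 and 8 reads.

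The major arm, miR-3068-3p, read 39.1, 32.5 and 36 CPM in CC, 35.4, 43 and 38 in CO, 31.8, 32.9 and 32.1 in OC, and 37.3, 37.6 and 56.9 in OO. All OO libraries were above all OC libraries, and OO replicate 3 stood above the other 11. The log2 change of OO against OC was 0.41 (SE 0.170, limma adjusted p = 0.673), and it was 0.21 without OO replicate 3. By maternal diet the means were close, at 37.3 ± 3.58 CPM for control and 38.1 ± 9.57 CPM for obesogenic mothers (SD, n = 6 each).

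miR-1839, inside a scaRNA, had both arms higher in obesogenic-fed sons at an unadjusted p under 0.05. The major arm miR-1839-5p read 316, 294 and 296 CPM in CC, 311, 359 and 477 in CO, 335, 327 and 334 in OC, and 343, 359 and 440 in OO. CC and OC were narrow, OO lay above both, and CO replicate 1 fell within the range of CC. The log2 change with the sons' diet was 0.25 (SE 0.109, limma adjusted p = 0.317). It was 0.17 without CO replicate 3, the library with 477 CPM.

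miR-1839-3p read 14.4, 15.8 and 12.7 CPM in CC, 20.7, 20 and 16.9 in CO, 18.4, 18.5 and 17 in OC, and 17.6, 19.9 and 25 in OO. The 3 CC libraries were the lowest of the 12, and the other groups overlapped. The change was 0.30 (SE 0.111, limma adjusted p = 0.258) with the sons' diet, 0.40 (adjusted p = 0.228) in CO against CC and 0.51 (adjusted p = 0.257) in OO against CC.

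The miR-1843 pair was steady. miR-1843a-5p read 410, 443 and 424 CPM in CC, 382, 371 and 403 in CO, 439, 425 and 446 in OC, and 419, 465 and 467 in OO. The CO libraries were the 3 lowest of the 12, as they were for the endothelial marker sum (15584 to 22984 CPM, others at least 23722), while they held the 3 highest hepatocyte sums. The part of either in these values, or in those of miR-1843a-3p, was not tested. The change was -0.05 with the sons' diet (95% interval -0.20 to 0.10) and 0.13 with maternal diet (-0.02 to 0.28). OO against CO gave 0.22 (0.01 to 0.43, limma adjusted p = 0.371), which was 0.07 with TMM factors.

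miR-1843b-5p gave almost the same reads. It differed from miR-1843a-5p by 0 reads in 4 libraries and by at most 3 reads in 7 more, 11 of the 12 libraries in all. In OC replicate 2 it had 6224 reads against 7316, 362 against 425 CPM, a gap of 1092 reads. How the authors assigned reads that match both strands is not given in the sources used here, and its part in this gap was not tested. The 3p strands differed in level, as miR-1843b-3p was 3.7 to 8.15 times as high as miR-1843a-3p with a median of 5.21. miR-1843a-3p read 18.2, 19.7 and 23.4 CPM in CC and 16.8, 16.4 and 14.9 in CO, with no overlap, and 17.4 to 22.4 CPM in the other 6 libraries. Its log2 change in CO against CC was -0.33 (SE 0.145, limma adjusted p = 0.276), and -0.21 with TMM factors.

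Among the miRNAs within protein-coding genes, miR-1933-3p, of the Ugp2 intron, had the lowest adjusted p for the sons' diet. It read 2.1, 1.87 and 1.88 CPM in CC, 2.75, 2.61 and 2.75 in CO, 0.901, 1.34 and 1.54 in OC, and 2.01, 2.74 and 2.86 in OO. On each maternal diet the obesogenic-fed sons lay above the control-fed sons without overlap, and OC lay below CC. Across maternal diets the sides overlapped, as OO replicate 1 at 2.01 CPM was below CC replicate 1 at 2.1 CPM. The log2 change with the sons' diet was 0.49 (SE 0.113, 95% interval 0.24 to 0.74, limma adjusted p = 0.0731). It was 0.33 in CO against CC (adjusted p = 0.341) and 0.65 in OO against OC (adjusted p = 0.228), with an interaction of 0.32 (-0.18 to 0.82, adjusted p = 0.773, limma).

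At 14 to 59 reads per library, miR-1933-3p was near the floor of the table, where the added 1 CPM shrinks a change. With 5 CPM added the change was 0.21, and limma-voom gave 0.75. It passed with TMM factors (limma adjusted p = 0.0413) and with median-of-ratios factors (0.0435), and the adjusted p ranged from 0.0413 to 0.172 over the alternatives.

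miR-1947-5p, of the Lmln intron, read 9.02, 8.97 and 9.17 CPM in CC, 15.3, 10.6 and 13.6 in CO, 9.6, 11.3 and 11.3 in OC, and 12.5, 11.1 and 16.6 in OO. The 3 CC libraries were the lowest of the 12. With the sons' diet the log2 change came to 0.38 (SE 0.125, limma adjusted p = 0.19). In OO against CC it was 0.50 (adjusted p = 0.288). miR-1968-5p, of the Grtp1 intron, read 4.15 to 9.28 CPM in control-fed sons (median 6.39) and 7.1 to 11 CPM in obesogenic-fed sons (median 8.76). The sides overlapped through CC replicate 3 at 9.28 CPM, and the change was 0.42 (SE 0.169, limma adjusted p = 0.295).

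miR-3057-5p, over the Apba3 exons, read 2.71, 3.88 and 2.87 CPM in CC, 4.66, 5.01 and 4.59 in CO, 3.88, 3.72 and 3.25 in OC, and 4.35, 3.85 and 7.83 in OO. CO lay above CC, and OO replicate 3 stood above all others. The log2 change with the sons' diet was 0.44 (SE 0.152, limma adjusted p = 0.198), and in OO against CC it was 0.57, or 0.31 without OO replicate 3.

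miR-3061-3p, of the Ppp2ca exon, read 2.93, 4.28 and 3.32 CPM in CC, 1.83, 1.6 and 3.67 in CO, 4.42, 3.61 and 5.26 in OC, and 4.68, 3.02 and 7.54 in OO. CO replicates 1 and 2 were the lowest of the 12 and OO replicate 3 the highest, and every group overlapped another. The maternal log2 change came to 0.55 (SE 0.206, limma adjusted p = 0.579). OO against CO gave 0.83 (SE 0.291, adjusted p = 0.307). With log2 depth as a covariate the maternal change was 0.99 with a limma adjusted p of 0.0451, in a range of 0.0451 to 0.794 over the alternatives. Depth itself differed with maternal diet, and the 2 low CO libraries rested on 24 reads each.

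**Figure D3:**
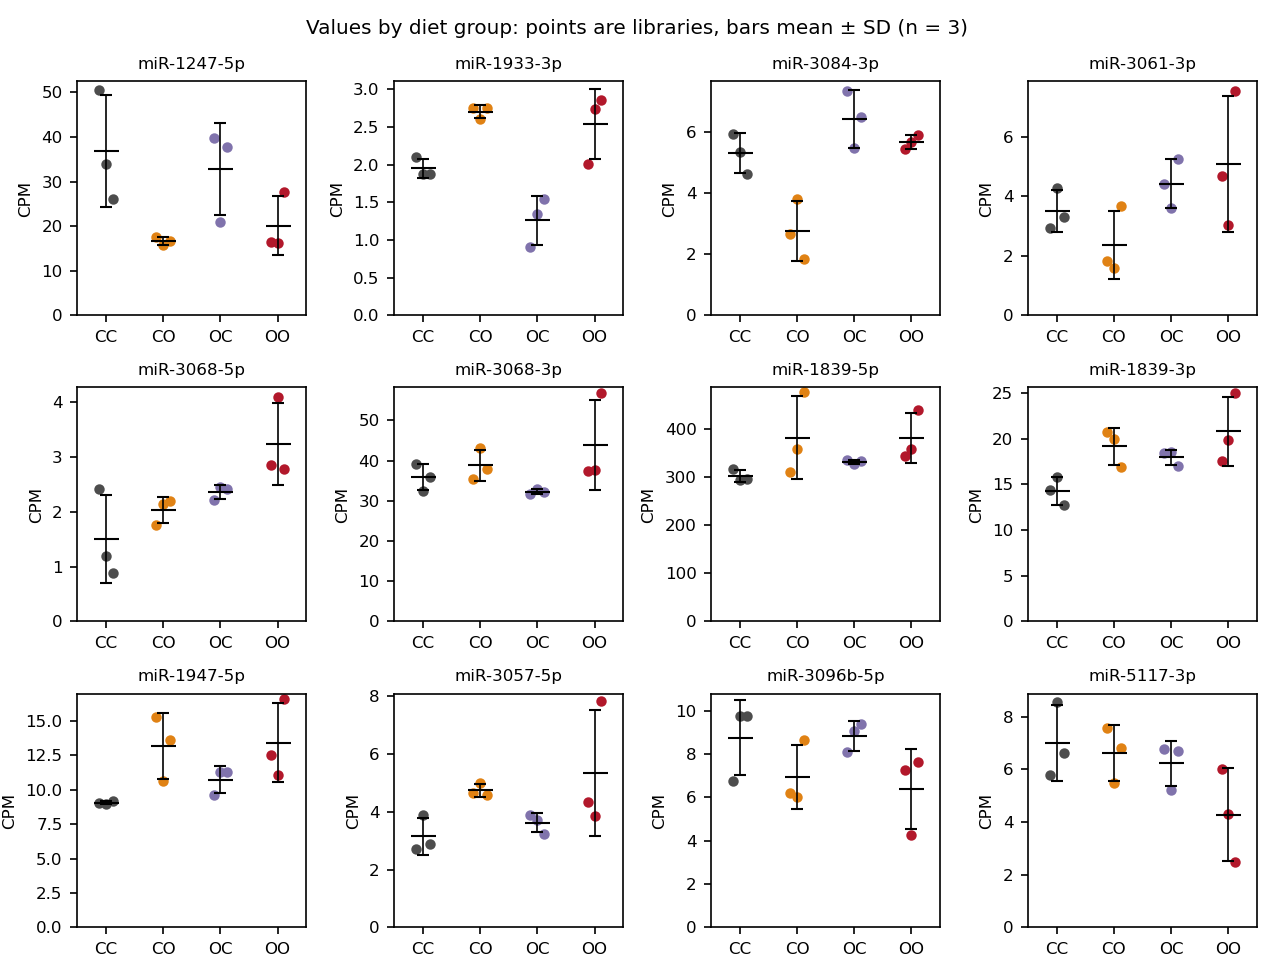
CPM of 12 of the named miRNAs in each library by diet group, with bars for the mean and SD (n = 3); each panel has its own axis from 0. The CO libraries of miR-3084-3p (1.84 to 3.81 CPM) sit below all others, and OO replicate 3 is the top point in the OO group of miR-1247-5p (27.7 CPM), miR-3061-3p (7.54 CPM) and miR-3057-5p (7.83 CPM).

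miR-1247-5p, in Dio3os, had the widest change with the sons' diet among the 52. It read 50.6, 33.9 and 26.1 CPM in CC, 17.6, 15.8 and 16.7 in CO, 39.7, 21 and 37.7 in OC, and 16.5, 16.2 and 27.7 in OO. Of the 6 obesogenic-fed sons, 5 lay below all control-fed sons, and OO replicate 3 at 27.7 CPM lay within their range. Control-fed sons averaged 34.8 ± 10.5 CPM and obesogenic-fed sons 18.4 ± 4.58 CPM (SD, n = 6 each). The log2 change was -0.86 (SE 0.208, 95% interval -1.31 to -0.40, limma adjusted p = 0.0765), -1.04 in CO against CC (adjusted p = 0.166) and -0.67 in OO against OC (adjusted p = 0.673). Maternal diet gave 0.02 (-0.43 to 0.48). Without OC replicate 2, the lowest control-fed library, the limma adjusted p was 0.03, and it ranged from 0.03 to 0.192 over the alternatives.

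Of the named miRNAs without a sequence in the table, miR-3096a-5p and miR-3096b-5p were both lower in obesogenic-fed sons at an unadjusted p under 0.05. miR-3096b-5p read 6.77, 9.77 and 9.73 CPM in CC, 6.18, 6.01 and 8.63 in CO, 8.07, 9.07 and 9.4 in OC, and 7.28, 4.27 and 7.64 in OO. OO lay below OC, and CO overlapped CC. The log2 change was -0.37 (SE 0.156, limma adjusted p = 0.315). miR-3096a-5p ran from 2.74 to 5.51 CPM in obesogenic-fed and from 4.36 to 6.51 CPM in control-fed sons, with a change of -0.35 (SE 0.150, limma adjusted p = 0.317).

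miR-5117-3p read 5.79, 8.57 and 6.63 CPM in CC, 7.56, 5.48 and 6.79 in CO, 6.76, 5.23 and 6.68 in OC, and 6.02, 4.32 and 2.48 in OO. OO replicates 2 and 3 were the lowest of the 12, and OO replicate 1 lay within the other groups. OO against CC gave -0.64 (SE 0.245, limma adjusted p = 0.306) and OO against CO -0.58 (SE 0.245, adjusted p = 0.371). Without OO replicate 3 these were -0.37 and -0.31. miR-1982.1-3p, at 0.916 to 2.67 CPM and 12 to 43 reads, had group means of 1.73 ± 0.59, 1.76 ± 0.828, 1.8 ± 0.413 and 1.7 ± 0.845 CPM in CC, CO, OC and OO (SD, n = 3 each), which lay within the replicate spread.

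The shared entry miR-3107-5p/miR-486-5p read 2459, 2454 and 1718 CPM in CC, 5594, 2374 and 3884 in CO, 1741, 3254 and 2554 in OC, and 2280, 1670 and 2855 in OO. CO replicates 1 and 3 were the highest of the 12, and CO replicate 2 lay within CC. The log2 change was 0.77 in CO against CC (SE 0.320, limma adjusted p = 0.255) and -0.75 in OO against CO (SE 0.320, adjusted p = 0.371). Without CO replicate 1 these were 0.48 and -0.45. The other 3 erythroid markers summed to 3405 CPM in CO replicate 1 and to 1143 to 1987 CPM in the other libraries, with 1166 CPM in CO replicate 3. Their part in the values of this entry was not tested.

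miR-1948, with both arms among the more abundant, showed no group apart. miR-1948-3p was 340 ± 37 CPM in sons of control mothers and 310 ± 28.1 CPM in sons of obesogenic mothers (SD, n = 6 each), with a maternal change of -0.13 (95% interval -0.34 to 0.08). With the sons' diet the change was -0.02 (-0.23 to 0.19).

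Both arms were listed for 7 hairpins, which allows a ratio inside each library that the scaling does not touch. The ratio of miR-1839-5p to miR-1839-3p was 15 to 28.2 with a median of 18.4, and that of miR-1843a-5p to miR-1843a-3p was 18.1 to 27.1 (median 23). For miR-1843b the 5p strand was 3.33 to 5.67 times as high (median 4.19). The 5p reads of miR-1843a and miR-1843b differed by at most 3 in 11 libraries, so both ratios rest on almost the same 5p reads. They therefore do not show whether the hairpins differ in their use of arms. In miR-1948 and miR-1981 the 3p strand led, by 1.72 to 2.42 (median 1.87) and 2.16 to 2.86 (median 2.53). In miR-3073b the arms were near each other, at a 5p to 3p ratio of 0.906 to 3 (median 1.24).

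miR-3068 varied most, from 9.19 in OO replicate 2 to 40.8 in CC replicate 3 for 3p over 5p. The group mean of this ratio was 28 ± 12.3 for CC and 19.2 ± 1.65 for CO, then 13.7 ± 0.609 for OC and 14.3 ± 5.77 for OO (SD, n = 3 each). All 3 OC ratios, 14.4, 13.5 and 13.2, lay below the CC ratios of 16.2, 27 and 40.8, whereas the OO ratios of 13.1, 9.19 and 20.6 overlapped both. No test was made of these ratios, and the highest rests on 8 reads of the 5p strand.

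**Figure D4:**
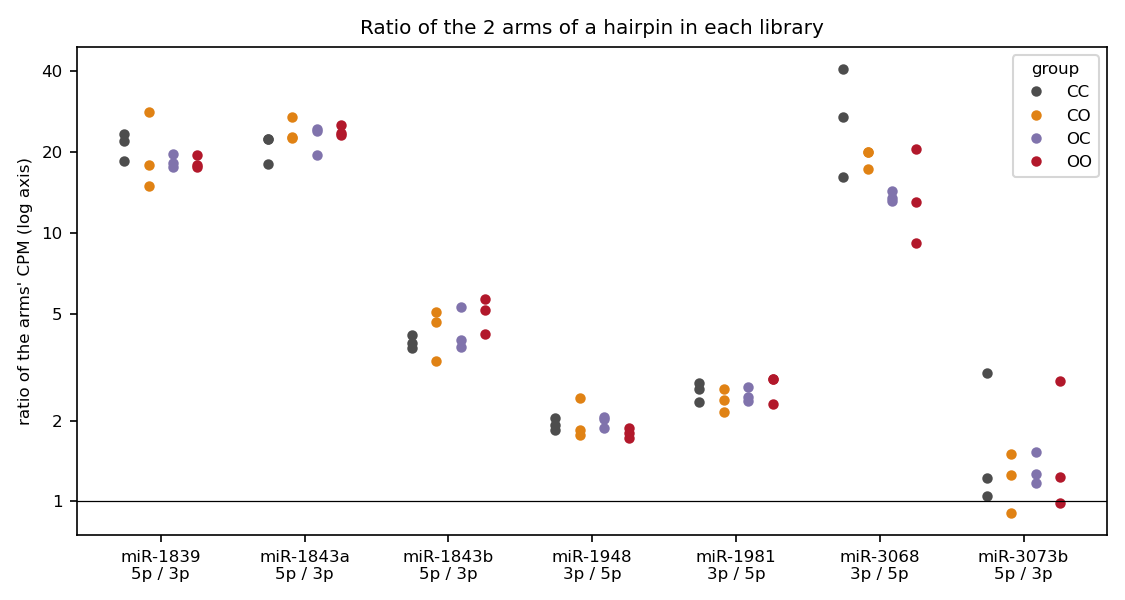
Ratio of the higher to the lower arm in CPM (log axis) for the 7 hairpins with both arms listed, 1 point per library, coloured by diet group. miR-3068 spans 9.19 to 40.8, while miR-1948 stays between 1.72 and 2.42.

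A set of the 52 varied widely between replicates of a group. The 10 with the widest spread within groups were miR-6240, miR-5109, miR-5105, miR-6243, miR-5126, miR-6238, miR-3963, miR-5115, miR-2137 and miR-5097, with an SD within groups from 1.1 for miR-6240 to 0.52 for miR-5097 on the log2 scale. Of the 50 widest among all 386 entries, 14 were of the 52. miR-6240 read 26.2, 57.2 and 324 CPM in CC, 54.2, 52.1 and 86.1 in CO, 80, 68.7 and 288 in OC, and 55, 72.4 and 75.6 in OO. CC replicate 3 and OC replicate 3 stood far above the other 10, and CC replicate 1 lowest.

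miR-5109 read 78.4, 167 and 600 CPM in CC, 207, 188 and 389 in CO, 310, 299 and 439 in OC, and 244, 276 and 289 in OO. CC held both its lowest and its highest library. miR-6243 read 59.5, 114 and 349 CPM in CC, 150 to 372 in CO, 237 to 305 in OC, and 227 to 254 in OO. miR-5115, the second most abundant of the 52, read 373, 597 and 1139 CPM in CC, 953, 624 and 1321 in CO, 1059, 1122 and 643 in OC, and 736, 1063 and 1152 in OO. CC replicate 1 was again the lowest of the 12.

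In 8 of these 10 miRNAs the lowest library was CC replicate 1, and in 3 the highest was CC replicate 3. CC replicate 1 was the lowest library for 13 of the 52 but for 5.96% of all entries. CC replicate 1 had 13.3 M reads, the most of the CC group, and its lowest value stood for 11 reads. The part of depth in its low values was not tested. Picking the 10 for their spread also favours a library with extreme values. As the 10 were taken for their spread, which is the error of the test, a lack of small p-values among them says nothing of diet. With the sons' diet the change was -0.02 for miR-5109 (95% interval -0.89 to 0.85), 0.31 for miR-5115 (-0.30 to 0.92) and -0.56 for miR-6240 (-1.74 to 0.61). With maternal diet it was 0.45 (-0.41 to 1.32), 0.30 (-0.31 to 0.90) and 0.33 (-0.85 to 1.50), and 0.61 for miR-6243 (-0.19 to 1.40).

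**Figure D5:**
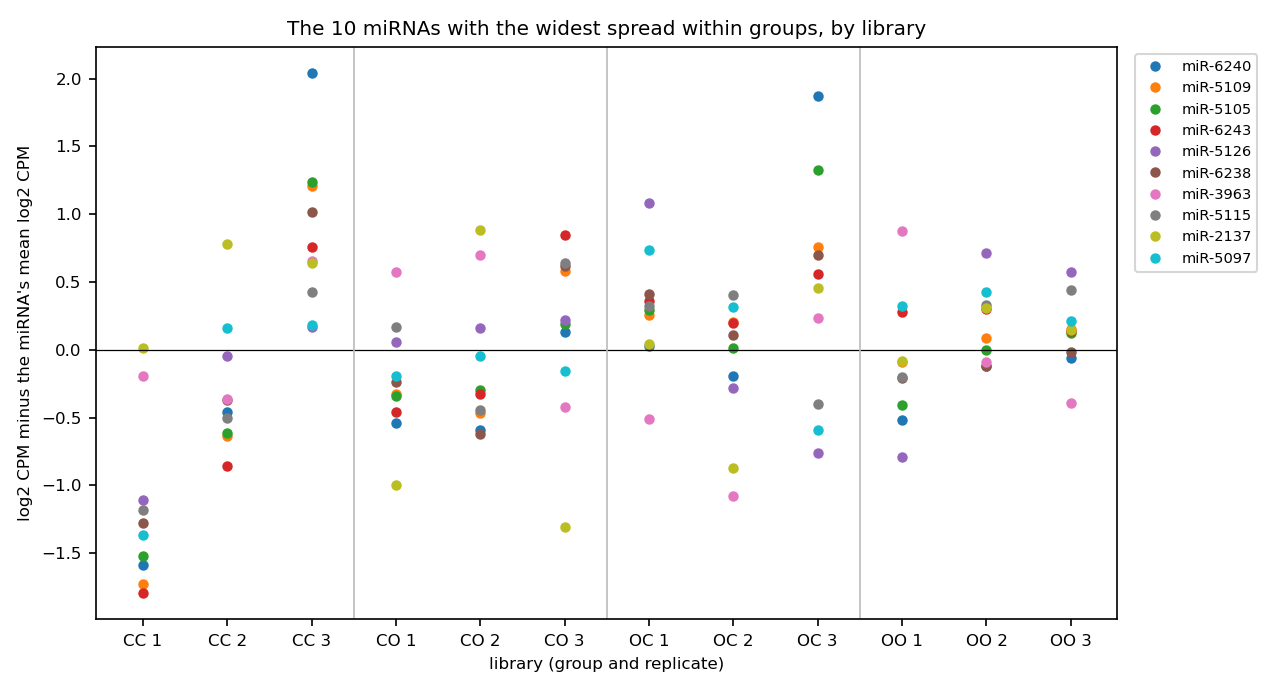
The 10 miRNAs of the 52 with the widest spread within groups, as log2 CPM minus the miRNA's mean log2 CPM, by library. CC replicate 1 holds the lowest point of 8 of the 10, and the points of CC replicate 3 lie above the mean.

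The 29 miRNAs outside the 23 named by level, p-value or number had mean levels of 1.82 to 170 CPM. Their log2 changes ran from -0.56 (miR-6240) to 0.38 (miR-3963) with the sons' diet and from -0.29 (miR-3963) to 0.44 (miR-5097) with maternal diet. The 95% interval stayed within 1 for 26 of the 29 in either comparison, and the lowest limma adjusted p was 0.417 and 0.587. miR-1198-5p, in an intron of Gripap1, read 36.3 to 46.4 CPM over the 12 libraries. OO replicate 3 was the highest library for 17 of the 52, beside 29% of all entries.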

How the data were processed

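Small RNA libraries of 12 livers were analysed, 3 per diet group. Groups came from the diet labels, and each library's column from the column number in its description. Total RNA was extracted with miRNeasy kits and libraries were made with a TruSeq small RNA kit, per the labels' protocols. The submitters' processing notes name Bowtie 1.2.3. Which build and miRNA set the reads were matched to, how reads fitting several miRNAs were counted, and how the list was filtered is not given in the sources used here. A single CPM table of 386 mature miRNAs was what the authors deposited, and each of its columns maps to a sample. Within a library every value (100%) is a whole number of steps of 1 size (tolerance 0.001 reads). Dividing the CPM total of 1000000 by the step gave the depth, 5.45 to 22.2 M reads (mega-reads) with a median of 13.2. The listed values of a library summed to 0.866 to 1.17% above that total, and the reason was not tested. CPM are no counts, so a linear model on the log scale was used.

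The members and lists were chosen with earlier results of these data known. limma 3.58.1 in R 4.3.3 was run on log2(CPM + 1) of all 386 entries with group means, a trended variance and 8 contrasts, all two-sided. P-values were adjusted by Benjamini-Hochberg over all entries of a contrast, and an adjusted p under 0.05 passed. Changes on this scale understate those of miRNAs at low CPM. The fit was tried on simulated reads that had the same setting for the spread of every miRNA and no outlying library. That trial does not show how well the fit finds changes in these data. Named with values were the 8 most abundant members, those with an unadjusted limma p under 0.05 in any contrast, and all listed arms of miR-1247, miR-1839, miR-1933, miR-1982, miR-3061, miR-3068, miR-3084 and miR-5117, 23 in all. The others were named for sequence, spread or extremes after their values were seen. Alternatives were pseudocounts of 0.25 and 5 CPM, a mean of 10 CPM or more, TMM and median-of-ratios factors, log2 depth as a covariate, each library left out, 6-library fits and limma-voom. Title prefixes split fully with maternal diet, so a batch behind them cannot be told apart from it. Replicate numbers follow accession order. Other steps used numpy 2.4.6 and pandas 2.3.3 under Python 3.11.15, with matplotlib 3.10.9 for figures. Sequences are RefSeq's (GRCm38.p6), and annotations GENCODE vM21 on GRCm38.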

Additional observations from a re-analysis of the deposited data

Results flagged for a closer look

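For each of the 23 named miRNAs the highest and lowest library was compared with the other 5 in 4 overlapping sets of 6 libraries (sons on either diet, sons of either kind of mother). In 11 of the 92 sets (12%) 1 library lay far from the rest. The limit used gives about 1 in 20 for normally distributed values from a single population. Each set here pools diet groups of unlogged CPM, and the share over all entries was not computed, so no excess over chance is shown. The sets share libraries, and 7 of the 11 concern OO replicate 3.

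In obesogenic-fed sons, OO replicate 3 read 27.7 CPM of miR-1247-5p (others 15.8 to 17.6), 7.83 CPM of miR-3057-5p (others 3.85 to 5.01) and 56.9 CPM of miR-3068-3p (others 35.4 to 43). Among sons of obesogenic mothers it read 25 CPM of miR-1839-3p (others 17 to 19.9), 440 CPM of miR-1839-5p (others 327 to 359), 7.83 CPM of miR-3057-5p (others 3.25 to 4.35) and 56.9 CPM of miR-3068-3p (others 31.8 to 37.6). This library was also the highest of the 12 for 29% of all 386 entries.

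The other 4 fell on separate libraries. CO replicate 3 read 477 CPM of miR-1839-5p among sons of control mothers (others 294 to 359). OO replicate 1 read 2.01 CPM of miR-1933-3p among obesogenic-fed sons (others 2.61 to 2.86). OO replicate 2 read 4.09 CPM of miR-3068-5p among sons of obesogenic mothers (others 2.21 to 2.84). OC replicate 3 read 439 CPM of miR-5109 among sons of obesogenic mothers (others 244 to 310).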

How the results depend on the processing

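With the settings reported, 0 of the 52 miRNAs passed in each of the 8 comparisons, and the count stayed at 0 in all but 8 of 157 combinations of comparison and alternative. It was 1 for the sons' diet with TMM factors and with median-of-ratios factors (miR-1933-3p), 1 for maternal diet with log2 depth as a covariate (miR-3061-3p) and 1 for CO against CC with log2 depth as a covariate (miR-3084-3p). Leaving out 1 library at a time gave counts from 0 to 1 for the sons' diet (1 without OC replicate 2, miR-1247-5p), for CO against CC and OO against CO (1 without CO replicate 2, miR-3084-3p) and for OO against CC (1 without CC replicate 1, miR-3068-5p). The cause of these was not tested. The 37 named changes checked were those with an unadjusted limma p under 0.05 at the settings reported. Of their 705 alternative values, 0 reversed and 8 crossed the threshold. As they were picked for a clear direction and refitted on much the same libraries, the lack of reversals does not show that they are stable. The filter at a mean of 10 CPM left 29 of the 52 to test. limma-voom, chosen after seeing the data, passed 0 in every comparison. The planned edgeR and DESeq2 fits were not run. Among the fits, the reads computed from the CPM steps were used for limma-voom and for the alternative with TMM factors. No paired analysis was possible because replicate numbers follow accession order and only 1 pair of titles, those of OC replicate 2 and OO replicate 3, shares a number. Depth limits the miRNAs of few reads most: miR-3068-5p rested on 8 to 88 reads per library, miR-3084-3p on 10 to 163 and miR-1933-3p on 14 to 59.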
